A study of Mus musculus with 16 samples.

Results

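The 9 mouse genes that encode phosphofructokinases and fructose bisphosphatases were followed across brown adipose tissue (BAT) and gonadal white adipose tissue (gWAT), with and without adipocyte deletion of Pgam1. They were Pfkl, Pfkm and Pfkp, then Pfkfb1, Pfkfb2, Pfkfb3 and Pfkfb4, and finally Fbp1 and Fbp2. The genes were chosen by name, not by their values, among 22911 gene symbols that the RefSeq accessions of the array's probes could be matched to. The 9 genes had 15 probes, and each gene was represented by the probe with the highest mean signal. Fbp1 and Fbp2 are neighbours on mouse chromosome 13 and share older names, so both were matched by accession only.

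RNA was taken from male C57BL/6NCrSlc mice housed at 23 °C. Adipo-Pgam1 KO mice carried Pgam1 flox/flox and Cre recombinase driven by the adiponectin promoter (Adipoq-Cre), and their littermate controls (wild type in the labels) carried Pgam1 flox/flox without Cre, so that both genotypes had the floxed allele. The mice were 16 weeks old, except replicate 4 of Adipo-Pgam1 KO in both tissues, which was 14 weeks old. Each of the 4 groups had 4 arrays of the 1-colour Agilent type, 16 in all, each from 100 ng of RNA according to the labels. The adiponectin promoter is active in adipocytes, whereas the RNA came from whole tissue with its other cells. The labels number the samples of a group but do not say which BAT and gWAT samples shared a mouse, and p-values measure the spread between these samples only. In bulk tissue, fewer cells of a type and less RNA per cell cannot be told apart.

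All values below are normalized log2 intensities, in which 0 is the 75th percentile of the array's probes, and a step of 1 is a 2-fold change in signal. The intensity of one probe cannot be set against that of another, so isoforms were compared by their changes and by differences within an array. Differences were tested with limma over all genes measured in the comparison, and a gene was called where its Benjamini-Hochberg adjusted p was under 0.05. On each array at most 62.2% of the probes passed the scanner software's mark for well above background, and no spot was saturated. The 75th percentile of the raw intensities was 401.3 to 451.3 in BAT controls but 650.2 to 916.2 in BAT of Adipo-Pgam1 KO mice. The arrays lay on 3 slides. BAT control replicate 4 shared a slide with the BAT Adipo-Pgam1 KO arrays and with gWAT control replicates 1 to 3, and gWAT control replicate 4 shared one with the gWAT arrays with the KO label. This last slide was scanned on another day than the rest.

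Phosphofructokinase-1 makes the committed step of glycolysis, the transfer of a second phosphate onto fructose-6-phosphate. Its tetramers are built from a liver type (Pfkl), a muscle type (Pfkm) and a platelet type (Pfkp) subunit. Fructose-1,6-bisphosphatase runs the opposite reaction in gluconeogenesis, with Fbp1 known from liver and kidney and Fbp2 from muscle. The Pfkfb genes encode enzymes with a kinase and a phosphatase domain, which make and break fructose-2,6-bisphosphate, a small activator of phosphofructokinase-1 and inhibitor of fructose-1,6-bisphosphatase. In adipose tissue this node helps set how much glucose carbon passes on to lactate, glycerol and fatty acid synthesis, and in BAT glucose use rises with thermogenesis.

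The promoters of the genes were read from RefSeq, since binding sites there could be set beside the responses of the genes. The windows of 300 bases that span each RefSeq start (mouse build GRCm38.p6), mostly ahead of it, were searched on both strands. The letters sought were CACGTG, the E box that Myc and ChREBP can bind, and ACGTG, which every E box of this form also holds. ACGTG is a form of the core of hypoxia response elements, and the other form, GCGTG, was not searched for. CACGTG was in 4 of the 18 windows of the 9 genes and in 7.15% of 32851 windows of all genes, and ACGTG was in 7 of 18 and in 19.6%. The 4 genes with an E box were Pfkm, Pfkfb2, Pfkfb3 and Fbp2, and the same genes held every ACGTG match. The windows of Pfkl, Pfkp, Pfkfb1, Pfkfb4 and Fbp1 held neither. GCGTG can nevertheless be read in windows of Pfkl, Pfkp and Pfkfb4, and on the opposite strand in a window of Pfkfb1. A match is a description of the letters only. Windows of 3 genes with an E box are printed with the window of Pfkfb4, which has no match and whose response in BAT went the other way, 5′ to 3′ in lower case with the matched letters in capitals.
Pfkfb2, chr1:130715772-130716071, minus strand: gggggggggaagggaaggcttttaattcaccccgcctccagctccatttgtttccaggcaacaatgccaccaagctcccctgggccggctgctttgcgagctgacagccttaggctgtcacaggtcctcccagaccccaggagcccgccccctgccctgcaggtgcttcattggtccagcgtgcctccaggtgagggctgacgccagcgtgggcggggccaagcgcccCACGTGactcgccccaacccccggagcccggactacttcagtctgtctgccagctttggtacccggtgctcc
Pfkfb3, chr2:11502041-11502340, minus strand: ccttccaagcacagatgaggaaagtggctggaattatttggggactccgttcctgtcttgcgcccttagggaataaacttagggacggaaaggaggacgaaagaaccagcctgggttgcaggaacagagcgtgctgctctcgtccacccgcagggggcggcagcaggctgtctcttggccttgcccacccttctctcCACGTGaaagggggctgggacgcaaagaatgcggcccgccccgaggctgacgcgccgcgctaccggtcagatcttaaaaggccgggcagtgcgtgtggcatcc
Fbp2, chr13:62858351-62858650, minus strand: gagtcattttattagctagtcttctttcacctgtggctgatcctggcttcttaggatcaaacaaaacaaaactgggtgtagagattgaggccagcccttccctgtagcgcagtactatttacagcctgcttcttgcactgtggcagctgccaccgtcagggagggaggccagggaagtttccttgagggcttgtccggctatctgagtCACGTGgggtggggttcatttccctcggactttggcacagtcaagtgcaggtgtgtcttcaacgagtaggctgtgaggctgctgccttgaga
Pfkfb4, chr9:108991652-108991951, plus strand: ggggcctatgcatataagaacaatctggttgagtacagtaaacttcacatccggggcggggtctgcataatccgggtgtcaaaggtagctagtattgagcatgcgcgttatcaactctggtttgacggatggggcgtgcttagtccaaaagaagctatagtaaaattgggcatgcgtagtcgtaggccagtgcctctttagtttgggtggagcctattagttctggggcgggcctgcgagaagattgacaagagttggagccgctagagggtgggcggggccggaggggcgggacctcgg

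Pgam1, the deleted gene, was checked first. In BAT its values were 7.94, 7.93, 8.07 and 7.82 in controls and 6.2, 6.13, 6.03 and 6.43 in Adipo-Pgam1 KO mice, a log2 difference of -1.74 (SE 0.112, limma adjusted p = 1.11e-05). In gWAT its values were 5.07, 5.15, 5.67 and 5.56 in controls and 6.50, 6.42, 6.38 and 5.95 in the arrays with the KO label, a difference of 0.95 (SE 0.187, limma adjusted p = 0.0139). Pgam1 thus stood above the controls in the gWAT arrays that carry the KO label, against that label, and every direction given below for gWAT rests on that label. The Pgam1 difference in gWAT was not called with slide as a fixed block (0.75, limma adjusted p = 0.248), on the arrays of a shared slide (0.75, 0.235) or with a replicate block (0.95, 0.0514). On the same arrays Cidea, a brown adipocyte gene, was 2.85 ± 0.45 in controls and 6.26 ± 0.60 (SD, n = 4) with the KO label, a difference of 3.41 (SE 0.327, limma adjusted p = 0.00126). Ucp1 was above background on 3 of the 4 labelled arrays and on no gWAT control. Both belong to a list of 9 brown adipocyte genes, of which 6 were tested in gWAT. Of these, 4 were called higher by limma, beside 9.99% of all genes tested, and 2 were not called. The 2 were Ppargc1a, with a mean of -0.57 in controls and -1.09 with the label, and Prdm16 (-1.98 and -1.87). The paper reported lower Pgam1 by PCR and western blot, and lower Pgam enzyme activity, in gWAT of Adipo-Pgam1 KO mice. It also reported more of the enzyme's substrate, 3PG, in their BAT and WAT. In gWAT of these mice it found higher Ucp1 by PCR and more cells stained for Ucp1 and Cpt1b. A second Pgam1 probe gave -1.65 in BAT and 1.02 in gWAT, with groups that did not overlap in either tissue. The deleted exons are not named in the sources used here, so whether either probe lies in them is unknown.

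The tissue labels were checked against marker genes. All 7 adipocyte markers were well above background on all 16 arrays. The brown adipocyte list (9 genes, among them Ucp1 and Cidea) had a summed signal of 4287 to 4620 in BAT controls and 26.8 to 62.3 in gWAT controls, in units of the array's 75th percentile, and Ucp1 and Zic1 were not well above background on any gWAT control array. The gWAT arrays labelled Adipo-Pgam1 KO summed to 127 to 330 on that list, with Zic1 again not above background. BAT of Adipo-Pgam1 KO mice summed to 1413 to 2330.

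**Figure D1:**
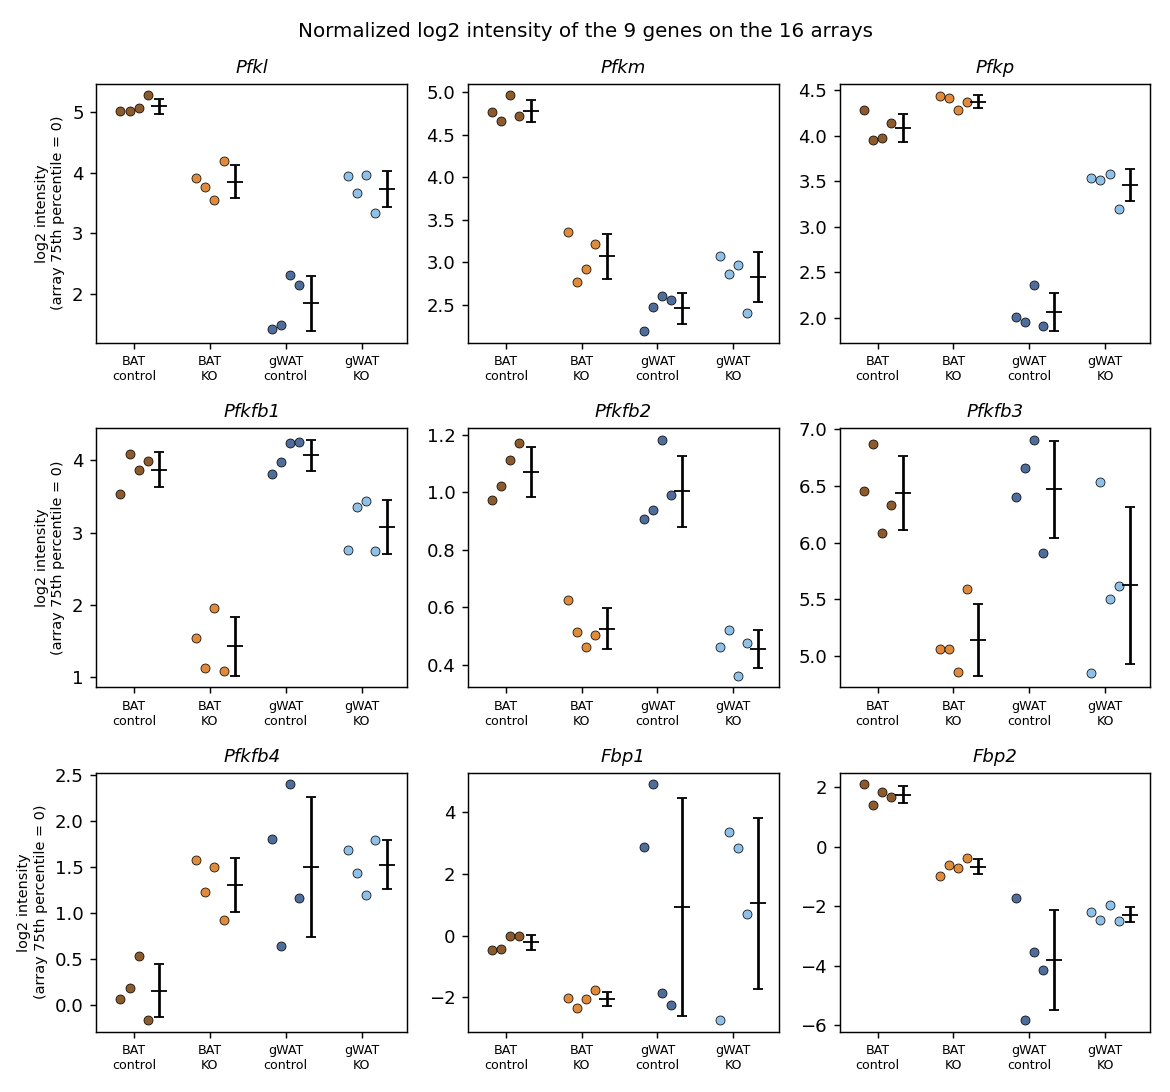
Normalized log2 intensity (y axis, 0 is the 75th percentile of the array, scales differ between panels) of each of the 9 genes in the 4 groups (x axis). Points are arrays in order of replicate number, and bars are the mean and SD of 4 arrays. Pfkl, Pfkm and Fbp2 stand highest in BAT controls, and Fbp1 spreads from -2.74 to 4.91 over the gWAT arrays. The Pfkfb2 probe shown has 2 levels that follow genotype in both tissues under this scaling. Its genotype difference was -0.0020 in BAT and -0.11 in gWAT with spike-in scaling, and the groups of the other Pfkfb2 probes overlapped in gWAT.

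In BAT, 7 of the 9 genes fell in Adipo-Pgam1 KO mice (Pfkl, Pfkm, Pfkfb1, Pfkfb2, Pfkfb3, Fbp1 and Fbp2) and 2 rose (Pfkp and Pfkfb4), where Pfkp turned below 0 with Actb and Rplp0 scaling and Pfkl, Pfkfb2 and Pfkfb3 turned above 0 with adipocyte marker scaling. Over all 14280 genes tested in BAT, 61.5% were called, 34% lower and 27.5% higher, so a call in either direction was common. The median log2 difference of the 9 genes was -1.30, against -0.08 over all genes tested. The groups did not overlap for 8 of the 9 genes, 7 lower and 1 higher, against 57.1% of all genes tested (31.9% lower and 25.1% higher). The split of calls over all genes was 3928 higher and 4849 lower, but 7261 and 1856 when arrays were scaled to their spike-in controls and 1917 and 8901 when scaled to Actb and Rplp0.

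Of the phosphofructokinase-1 subunits in BAT, Pfkm fell most. Its values were 4.76, 4.67, 4.96 and 4.72 in controls and 3.36, 2.77, 2.92 and 3.22 in Adipo-Pgam1 KO mice. The groups stood more than a full log2 unit apart, and the difference was -1.71 (SE 0.146, limma adjusted p = 2.90e-05), a 3.27-fold lower signal.

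Pfkl, the liver type subunit, read 5.02, 5.01, 5.07 and 5.27 in BAT controls and 3.90, 3.76, 3.54 and 4.18 in Adipo-Pgam1 KO mice. Again no array of one genotype reached the other, with a difference of -1.24 (SE 0.145, limma adjusted p = 0.000126), a 2.37-fold lower signal.

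Pfkp, the platelet type subunit, did not follow the other subunits. It read 4.28, 3.95, 3.97 and 4.14 in BAT controls and 4.43, 4.41, 4.28 and 4.38 in Adipo-Pgam1 KO mice. The lowest Adipo-Pgam1 KO array lay level with the highest control, and the rise of 0.29 (SE 0.104, limma adjusted p = 0.0376) was small. The call was lost without control replicate 2 (0.24, limma adjusted p = 0.102), without control replicate 3 (0.25, 0.0955), and without Adipo-Pgam1 KO replicate 1 (0.27, 0.0772), 2 (0.28, 0.0895) or 4 (0.29, 0.0640), and with Actb and Rplp0 scaling the difference turned to -0.30 (0.0605). A second Pfkp probe gave 0.27, also with overlapping groups.

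Among the bifunctional enzymes in BAT, Pfkfb1, whose liver product is a classical target of protein kinase A, fell most of all. It read 3.54, 4.09, 3.87 and 4.0 in controls and 1.54, 1.13, 1.96 and 1.09 in Adipo-Pgam1 KO mice. Its difference of -2.44 (SE 0.211, limma adjusted p = 3.09e-05) was a 5.44-fold lower signal, and a second probe gave -2.18 with groups that did not overlap.

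Pfkfb3, the isoform with the highest kinase over phosphatase activity and known to be induced by growth signals and hypoxia, read 6.46, 6.87, 6.09 and 6.34 in BAT controls. It read 5.06, 5.06, 4.86 and 5.59 in Adipo-Pgam1 KO mice, below every control. The difference was -1.30 (SE 0.205, limma adjusted p = 0.000652), and a second, dimmer probe gave -0.83 with overlapping groups.

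Pfkfb2, the heart type isoform, read 0.97, 1.02, 1.11 and 1.17 in BAT controls and 0.63, 0.51, 0.46 and 0.51 in Adipo-Pgam1 KO mice. The fall was shallow but tight, -0.54 (SE 0.0893, limma adjusted p = 0.000810). With spike-in scaling, under which the median of all genes moved to 0.46, the difference was -0.0020 (SE 0.134, limma adjusted p = 0.990). Of the other Pfkfb2 probes, which stand for other transcripts in RefSeq, one gave -0.12 with overlapping groups and one -0.91 with groups apart.

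Pfkfb4, the isoform first known from testis, was the only bifunctional enzyme among the 4 that rose in BAT. It read 0.06, 0.19, 0.53 and -0.17 in controls and 1.57, 1.23, 1.5 and 0.92 in Adipo-Pgam1 KO mice. All Adipo-Pgam1 KO arrays lay above all controls, by 1.15 on average (SE 0.189, limma adjusted p = 0.000796), a 2.22-fold higher signal. Its second probe was not well above background on any array.

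Both fructose bisphosphatases fell in BAT. Fbp2, the muscle type enzyme, read 2.10, 1.41, 1.83 and 1.69 in controls and -0.99, -0.60, -0.72 and -0.38 in Adipo-Pgam1 KO mice. Its difference of -2.43 (SE 0.176, limma adjusted p = 1.53e-05) was a 5.39-fold lower signal. Fbp1, the liver type enzyme, read -0.45, -0.42, -0.01 and -0.01 in controls and -2.03, -2.33, -2.05 and -1.77 in Adipo-Pgam1 KO mice, a difference of -1.82 (SE 0.160, limma adjusted p = 3.24e-05). In the fit over all 16 arrays, whose shared spread takes in gWAT, the same difference had an SE of 1.44 (limma adjusted p = 0.291).

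**Figure D2:**
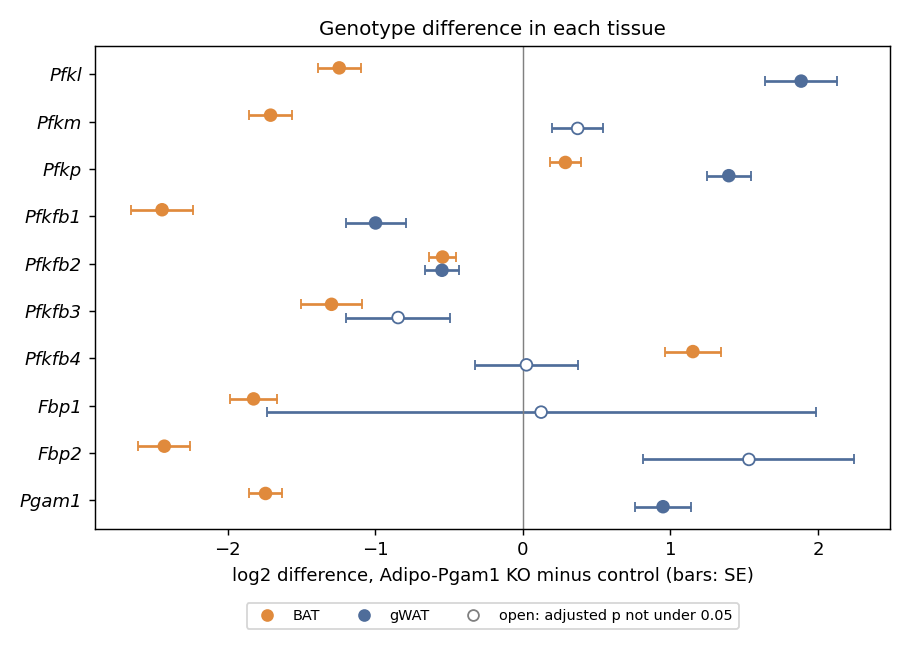
Log2 difference between Adipo-Pgam1 KO and littermate control arrays (x axis) for the 9 genes and Pgam1 (y axis) in BAT and gWAT, with the SE as bars, 4 arrays per group, and open points where the limma adjusted p was not under 0.05. Most BAT points lie left of 0, with Pfkfb4 at 1.15 and Pfkp at 0.29 (-0.30 with Actb and Rplp0 scaling) as the exceptions, while in gWAT Pfkl (1.89) and Pfkp (1.40) lie right of 0 and Pfkfb1 (-1.0) and Pfkfb2 (-0.55) left.

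Cell type markers moved with genotype in BAT. The summed signal of the 7 adipocyte markers was 2716 to 2981 in controls and 962 to 1363 in Adipo-Pgam1 KO mice, and all 7 were called lower, with a median of -1.06. The macrophage list (9 genes, all above background) summed to 28.3 to 39.6 in controls and 90.7 to 133 in Adipo-Pgam1 KO mice, with 7 of 9 called higher. When arrays were scaled to the adipocyte markers instead, an alternative chosen after seeing the data that moved the median of all genes to 1.24, Pfkl (0.08, SE 0.153) and Pfkfb3 (0.03, SE 0.193) stood level with those markers. Under that scaling Pfkm (-0.39), Pfkfb1 (-1.12), Fbp1 (-0.50) and Fbp2 (-1.11) were still called lower in limma, with adjusted p of 0.0428, 0.00304, 0.0292 and 0.000667. Pfkp (1.61), Pfkfb2 (0.78) and Pfkfb4 (2.48) were called higher. Most genes tested were called higher under that scaling and few lower, and Pfkfb2 lay below the median of all genes. The part of cell composition in these differences was not tested.

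Skeletal muscle expresses Pfkm and Fbp2, and its markers differed among BAT arrays. The muscle list (14 genes) summed to 2.79 to 4.61 in controls and to 134, 2.69, 25.7 and 3.89 in Adipo-Pgam1 KO replicates 1 to 4, while Myog and Myod1 were not above background on any Adipo-Pgam1 KO array. Replicate 1, with the most muscle signal, had the highest Pfkm (3.36) and the lowest Fbp2 (-0.99) of its group. Leaving out each array in turn kept Pfkm between -1.81 and -1.61 and Fbp2 between -2.54 and -2.32.

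**Figure D3:**
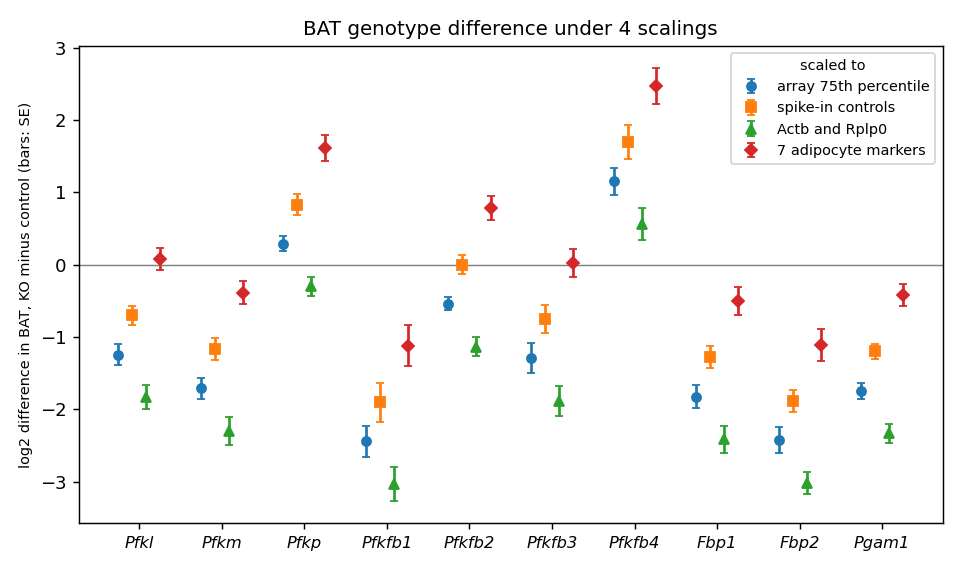
Log2 difference in BAT, Adipo-Pgam1 KO minus control (y axis, bars are SE), for the 9 genes and Pgam1 (x axis) with the arrays scaled in 4 ways. A scaling moves all genes of an array by the same amount. Pfkfb1 and Fbp2 stay below 0 and Pfkfb4 above 0 in each, and Pfkl, Pfkp, Pfkfb2 and Pfkfb3 cross 0 in at least 1.

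On the shared slide, where only control replicate 4 faced the 4 Adipo-Pgam1 KO arrays, the BAT differences were -1.43 for Pfkl, -1.65 for Pfkm, -2.57 for Pfkfb1, -0.64 for Pfkfb2 and -1.19 for Pfkfb3. They were 1.47 for Pfkfb4, -2.04 for Fbp1 and -2.36 for Fbp2. With slide as a fixed block over all 8 arrays the same differences came out, since BAT control replicates 1 to 3 lay on a slide without Adipo-Pgam1 KO arrays. The block is thus no second comparison. Pfkp gave 0.24 in both and was not called with the block (limma adjusted p = 0.269).

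In gWAT, 4 of the 9 genes were called, against 17.8% of the 14149 genes tested. Pfkl and Pfkp were higher in the arrays with the KO label, where 9.99% of all genes were, and Pfkfb1 and Pfkfb2 were lower, where 7.85% were. The same 4 were the ones whose groups did not overlap, against 24.1% of all genes tested (13.3% higher and 10.8% lower). The median of the 9 genes was 0.12 and that of all genes tested 0.05. Over all genes, calls split into 1414 higher and 1111 lower, but 983 and 401 with the median as scale and 4916 and 245 with spike-in scaling, which moved the median of all genes to 0.49.

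Pfkl rose most in gWAT. It read 1.41, 1.49, 2.31 and 2.15 in controls and 3.94, 3.67, 3.96 and 3.33 in the arrays with the KO label. The groups lay about a log2 unit apart at their nearest, and the difference was 1.89 (SE 0.245, limma adjusted p = 0.00326), a 3.70-fold higher signal.

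Pfkp read 2.01, 1.95, 2.36 and 1.91 in gWAT controls and 3.54, 3.51, 3.58 and 3.19 in the arrays with the KO label. It rose by 1.40 (SE 0.150, limma adjusted p = 0.00177), and its second probe gave 1.23 with groups apart. Pfkm, by contrast, read 2.19, 2.48, 2.61 and 2.55 in controls and 3.08, 2.86, 2.97 and 2.40 in the labelled arrays, which overlapped. Its difference of 0.37 (SE 0.175) was not called (limma adjusted p = 0.168), but it was called without replicate 4 of the labelled arrays, the 14-week sample (0.51, limma adjusted p = 0.0373), and with spike-in scaling (0.81, 0.00411).

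Pfkfb1 was lower in the gWAT arrays with the KO label too. Its values were 3.82, 3.98, 4.24 and 4.25 in controls and 2.77, 3.35, 3.44 and 2.74 in the labelled arrays, a difference of -1.0 (SE 0.203, limma adjusted p = 0.0151). The second probe gave -0.64 with overlapping groups, and with the median as scale the difference was -0.88 (limma adjusted p = 0.0573). Pfkfb2 read 0.91, 0.94, 1.18 and 0.99 in controls and 0.46, 0.52, 0.36 and 0.48 in the labelled arrays, a difference of -0.55 (SE 0.115, limma adjusted p = 0.0162), which was not called without labelled replicate 3 (-0.52, limma adjusted p = 0.0557), with spike-in scaling (-0.11, 0.701), with the median as scale (-0.43, 0.148) or as the mean of its probes (-0.38, 0.0791).

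Pfkfb3 varied more in gWAT than in BAT. It read 6.41, 6.66, 6.91 and 5.91 in controls and 4.85, 6.53, 5.51 and 5.62 in the labelled arrays, so that replicate 2 stood among the controls. The difference of -0.84 (SE 0.351) was not called (limma adjusted p = 0.125), but was without that replicate (-1.15, limma adjusted p = 0.0469). Pfkfb4 read 1.80, 0.64, 2.40 and 1.16 in gWAT controls and 1.68, 1.43, 1.20 and 1.80 in the labelled arrays, a difference of 0.02 (SE 0.349, limma adjusted p = 0.969). The 4 labelled arrays lay inside the range of the controls.

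Fbp2 was near the detection limit in gWAT. It read -1.74, -5.83, -3.54 and -4.16 in controls, well above background on 2 of 4 arrays, and -2.20, -2.47, -1.96 and -2.51 in the labelled arrays, above background on all 4. Fbp2 therefore entered the gWAT test through the labelled arrays alone. The difference of 1.53 (SE 0.714) was not called (limma adjusted p = 0.164), with a size that rests partly on values at background. The difference was called without control replicate 1 (2.23, limma adjusted p = 0.0265), the only control above the labelled arrays. Of the 3 controls left only 1 was above background, so that call rests on values at background. Control replicate 1 also had the highest sum on the epididymis and testis list (7 genes), 9.30, against at most 1.57 on the other gWAT arrays. The summed signal of the muscle list (14 genes) was 4.17 to 25.9 in gWAT controls and 30.5 to 58.8 in the labelled arrays, and its part in the Fbp2 values was not tested. Of its 7 genes tested in gWAT, 2 were above 0 and 5 below with a median of -0.34, limma called 0, and 2 had an unadjusted p under 0.05, Acta1 (2.20) and Pvalb (-1.0). Ckm, Ttn, Myog and Myod1 were above background on no gWAT array.

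Fbp1 had the widest spread of the 9 genes. In gWAT it read 2.87, 4.91, -1.85 and -2.24 in controls and -2.74, 3.37, 2.86 and 0.69 in the labelled arrays, and neither group held together. The genotype difference of 0.12 (SE 1.86) was not called (limma adjusted p = 0.972), and leaving out single arrays moved it between -0.93 and 1.45, below 0 without control replicate 3 or 4 or labelled replicate 2 or 3.

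The liver list (Alb, Apoa1, Ttr and Fgb) varied across the same arrays. Its summed signal was 47.1, 327, 13.5 and 11.1 in gWAT controls and 1.91, 114, 84.4 and 21.5 in the labelled arrays. The 4 gWAT arrays with the most liver signal were the 4 with the highest Fbp1, and the array with the least had the lowest. In BAT the list summed to at most 0.115, no gene of it was above background on any control array, and Alb was above background on 1 Adipo-Pgam1 KO array. The part of liver RNA in the gWAT values of Fbp1 was not tested.

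**Figure D4:**
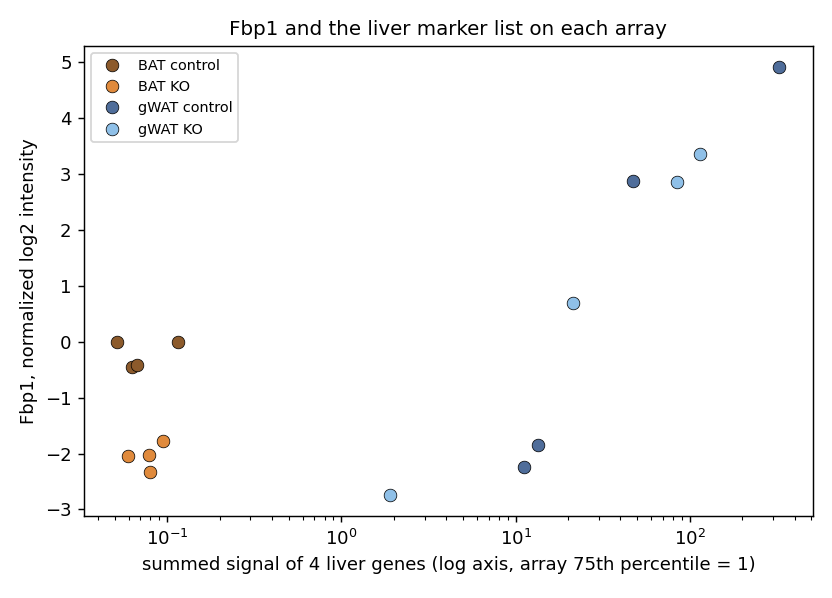
Fbp1 (y axis, normalized log2 intensity) against the summed signal of 4 liver genes (x axis, log scale, the array's 75th percentile is 1) on each of the 16 arrays, coloured by group. The gWAT arrays spread from 1.91 and -2.74 to 327 and 4.91, whereas BAT arrays sit at the left with Fbp1 split by genotype.

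Of the other lists in gWAT, the macrophage sum was 69.9 to 97.1 in controls and 69.8 to 182 in the labelled arrays, and the adipocyte sum was 1930 to 3062 and 1825 to 2409. With adipocyte marker scaling Pfkl (2.02), Pfkp (1.53) and Pfkfb1 (-0.86) were still called, Pfkfb2 was not (-0.41, limma adjusted p = 0.0774), and Pfkm was called higher (0.50, 0.0164). On the shared slide, gWAT control replicate 4 alone faced the labelled arrays, and the lowest limma adjusted p of the 9 genes was 0.0509, for Fbp2. The differences there were 1.58 for Pfkl (adjusted p = 0.0779), 1.54 for Pfkp (0.0510), -1.18 for Pfkfb1 (0.170) and -0.53 for Pfkfb2 (0.238). With slide as a block over all 8 arrays the same 4 differences came out, and of them Pfkp was called (limma adjusted p = 0.0329).

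The genotype difference itself was then compared between the tissues. Of the 9 genes, 6 had a difference in gWAT that departed from that in BAT, 5 more positive and 1 more negative, against 48.3% of 14820 genes tested (27.4% and 21%). It was more positive in gWAT for Pfkl (3.13, SE 0.297, limma adjusted p = 6.52e-06), Pfkm (2.08, SE 0.230, 1.75e-05), Pfkp (1.11, SE 0.175, 0.000183), Pfkfb1 (1.45, SE 0.306, 0.00148) and Fbp2 (3.96, SE 0.803, 0.00110), whose size is uncertain because 2 of 4 gWAT control arrays were at background. For Pfkfb4 it was more negative (-1.13, SE 0.424, limma adjusted p = 0.0395).

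Pfkl thus moved in opposite directions, Pfkp rose further in gWAT, and Pfkfb1 was lower in both tissues but less so in gWAT. Pfkfb2 had a difference between tissues of -0.004 (SE 0.127, limma adjusted p = 0.983), with -0.54 in BAT and -0.55 in gWAT. It was called in opposite directions with Actb and Rplp0 scaling (0.53, limma adjusted p = 0.0125) and with adipocyte marker scaling (-1.19, 0.000213). Pfkfb3 (0.45, SE 0.435) and Fbp1 (1.95, SE 2.05) were not called either (limma adjusted p = 0.411 and 0.453). The call of Pfkfb4 was lost when any 1 of 10 of the 16 arrays was left out, with values between -1.15 and -0.83 and limma adjusted p from 0.0553 to 0.0783. These were BAT control replicates 1, 2 and 4, BAT Adipo-Pgam1 KO replicates 1 to 3, gWAT control replicates 1 and 3, and gWAT labelled replicates 2 and 3. Pfkfb4 was also not called with the median (-1.03, limma adjusted p = 0.0541), spike-in controls (-1.23, 0.0780) or Actb and Rplp0 (-0.59, 0.272) as scale, or without a filter (-1.13, 0.0530). With slide as a fixed block it gave -1.11 (limma adjusted p = 0.257), as a random block -1.12 (0.0797), and on arrays of a shared slide -1.11 (0.0973). Pfkfb1 was not called with slide as a fixed block (1.39, limma adjusted p = 0.0669) or on arrays of a shared slide (1.39, 0.108), and with adipocyte marker scaling neither Pfkfb1 (0.26, 0.524) nor Pfkp (-0.08, 0.753) was.

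Littermate controls showed how the isoforms divided between the tissues. In them 5 of the 9 genes differed between BAT and gWAT, 4 higher in BAT and 1 lower, against 64.7% of the 14304 genes tested, 35.4% and 29.3%. All 3 phosphofructokinase-1 subunits were higher in BAT, Pfkl by 3.25 (SE 0.216, limma adjusted p = 5.25e-06), Pfkm by 2.32 (SE 0.129, 2.24e-06) and Pfkp by 2.03 (SE 0.139, 6.09e-06). Fbp2 was higher in BAT as well, with a fitted difference of 5.57 (SE 0.725, limma adjusted p = 0.000198) whose size is uncertain, since 2 of its 4 gWAT control arrays were at background and it entered the test through BAT. The groups did not overlap for any of these 5 genes, 4 higher and 1 lower in BAT, against 60.8% of all genes tested (33.6% and 27.2%).

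The bifunctional enzymes divided differently. Pfkfb4 was lower in BAT by 1.35 on the log2 scale (-1.35, SE 0.353, limma adjusted p = 0.00912). Pfkfb1 (-0.20, SE 0.161), Pfkfb2 (0.07, SE 0.108) and Pfkfb3 (-0.03, SE 0.242) had overlapping groups and were not called, with limma adjusted p from 0.305 to 0.918, although Pfkfb1 was called lower in BAT with spike-in scaling (-0.45, limma adjusted p = 0.0259) and Pfkfb2 higher with Actb and Rplp0 scaling (0.40, 0.00795). Fbp1 gave -1.14 (SE 1.49, limma adjusted p = 0.521), with the gWAT spread described above. On the slide that held gWAT control replicates 1 to 3 and BAT control replicate 4, Pfkl, Pfkm and Pfkp were called by limma and Pfkfb4 (-1.78, adjusted p = 0.112) and Fbp2 (5.39, 0.0552) were not.

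Between the tissues of Adipo-Pgam1 KO mice, 3 of the 9 genes were called, against 46.1% of 14449 genes tested, and the same 3 had groups that did not overlap, 2 higher and 1 lower in BAT, against 43.1% of all genes (21.9% higher and 21.2% lower). Pfkp was higher in BAT by 0.92 (SE 0.118, limma adjusted p = 0.000404) and Fbp2 by 1.61 (SE 0.173, 0.000147), and Pfkfb1 was lower (-1.64, SE 0.244, 0.000864). Pfkl stood at 3.85 ± 0.27 in BAT and 3.73 ± 0.30 in gWAT, and Pfkm at 3.07 ± 0.27 and 2.83 ± 0.30 (SD, n = 4), and neither difference was called (0.12, SE 0.187, and 0.24, SE 0.187). With adipocyte marker scaling both were called higher in BAT (1.12, limma adjusted p = 0.000178, and 1.24, 0.000119). Fbp1 (-3.09, SE 1.15) just missed the threshold (limma adjusted p = 0.0544) and was called without gWAT labelled replicate 1 (-4.35, limma adjusted p = 0.000762). It was also called with the median (limma adjusted p = 0.0485), spike-in controls (0.0479) or Actb and Rplp0 (0.0439) as scale, with normexp background (0.0406) and with genes above background on all arrays compared (0.0496). These groups lay on different slides scanned on different days, so tissue, slide and scan day cannot be told apart.

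Put in order across the 4 groups, Pfkl and Pfkm shared one sequence, from BAT controls down through BAT of Adipo-Pgam1 KO mice and the gWAT arrays with the KO label to gWAT controls. In that order the middle neighbours overlapped for both genes (exact permutation p = 0.543 and 0.286), and for Pfkm the last neighbours overlapped too (0.114). Pfkp had both BAT groups on top with overlapping arrays, then the labelled gWAT arrays, then gWAT controls. For Pfkfb2 the controls of both tissues overlapped (exact permutation p = 0.400), as did the KO arrays of both (0.286), with a mean gap of 0.48 between these levels. With 4 arrays against 4, the smallest two-sided exact permutation p is 0.0286.

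Isoforms were next compared within each array, where a factor applied to the whole array cancels. For 10 pairs of isoforms in each tissue, the difference between both log2 intensities was tested between genotypes, 20 tests in all. In 8 of them the groups did not overlap (exact permutation p = 0.0286), and after adjustment over the 20 tests none passed (adjusted p = 0.0714). That p is the smallest the exact test can give, so a pair could pass after adjustment only if more of the 20 reached it. When the differences were added as rows to the limma fit over all genes, a choice made after seeing the data, 12 of 20 were called, all 10 in BAT and 2 in gWAT. Of all genes tested, 61.5% were called in BAT and 17.8% in gWAT. Pairs of a family share genes, so the 20 tests are not independent.

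Pfkm lost ground to Pfkp in both tissues. In BAT, Pfkm minus Pfkp was 0.48, 0.71, 0.99 and 0.58 in controls and -1.08, -1.64, -1.36 and -1.16 in Adipo-Pgam1 KO mice, a change of -2.0 (SE 0.158, limma adjusted p = 2.20e-05). In gWAT it was 0.18, 0.53, 0.24 and 0.64 in controls and -0.46, -0.65, -0.61 and -0.79 in the labelled arrays, a change of -1.02 (SE 0.145, limma adjusted p = 0.00458). The groups did not overlap in either tissue, and the change was larger in BAT by 0.97 (SE 0.215, limma adjusted p = 0.00195).

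Pfkl moved differently against the other subunits in the tissues. Relative to Pfkp it went from 1.01 ± 0.18 to -0.53 ± 0.24 (SD, n = 4) in BAT, a change of -1.53 (SE 0.147, limma adjusted p = 4.82e-05), and from -0.22 ± 0.38 to 0.27 ± 0.14 in gWAT, a change of 0.49 with overlapping arrays (SE 0.195, 0.112). Relative to Pfkm it gained 0.47 in BAT with overlapping arrays (SE 0.146, limma adjusted p = 0.0216) and 1.51 in gWAT with arrays apart (SE 0.170, 0.00213).

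Of the bifunctional enzymes in BAT, Pfkfb1 minus Pfkfb4 went from 3.48, 3.91, 3.34 and 4.17 in controls to -0.03, -0.10, 0.46 and 0.17 in Adipo-Pgam1 KO mice. This change of -3.60 (SE 0.205, limma adjusted p = 7.03e-06) was the largest of the 20. Pfkfb3 lost 2.45 against Pfkfb4 (-2.45, SE 0.332, limma adjusted p = 0.000281), Pfkfb2 lost 1.70 (-1.70, SE 0.190, 0.000104), and Pfkfb1 lost 1.90 against Pfkfb2 (-1.90, SE 0.211, 9.81e-05). In gWAT none of the 6 pairs of bifunctional enzymes passed in either test, with changes from -1.02 to 0.30. Fbp1 against Fbp2 changed by 0.60 in BAT with overlapping arrays (SE 0.214, limma adjusted p = 0.0358) and by -1.41 in gWAT (SE 2.09, 0.673).

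**Figure D5:**
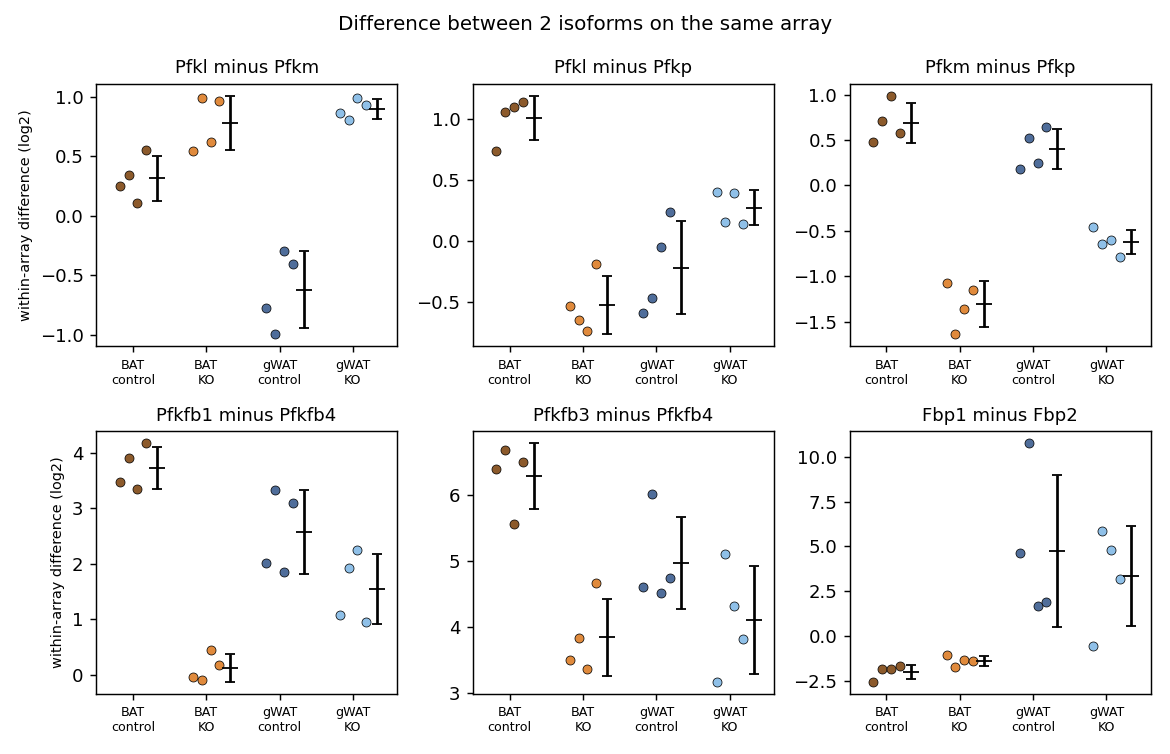
Difference in normalized log2 intensity between 2 isoforms on the same array (y axis, scales differ between panels) in the 4 groups (x axis), with points as arrays and bars as mean and SD of 4. Only changes between groups can be read, since the zero depends on the pair of probes. Pfkm minus Pfkp changes by -2.0 in BAT and -1.02 in gWAT with no overlap of the groups, and Pfkfb1 minus Pfkfb4 by -3.60 in BAT.

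The genes around this node were described by lists. Of 28 other enzymes of glycolysis and gluconeogenesis, 22 were tested in BAT, where 12 were lower and 4 higher, beside 34% and 27.5% of all genes tested, with a median of -0.54 against -0.08 over all genes. The list holds Pgam1, the deleted gene, which is among the 12 lower in BAT and among the 11 called higher in gWAT. Pck1, which makes phosphoenolpyruvate for gluconeogenesis and glycerol synthesis, fell most (-2.66, SE 0.193), and Aldoc, the brain type aldolase, rose most (3.65, SE 0.299). In gWAT 25 were tested, 11 were called higher by limma and the other 14 were not called, beside 9.99% of all genes called higher, with a median of 0.71 against 0.05 over all genes, and Pkm, the pyruvate kinase of most tissues, was highest (2.18, SE 0.261).

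A second list held 11 other enzymes that act on fructose phosphates, some of them shared with the first. In BAT 5 of 10 tested were lower, beside 34% of all genes, led by the pentose phosphate enzyme Tkt (-0.87, SE 0.190), and 2 higher, beside 27.5%, Aldoc and the glucosamine pathway enzyme Gfpt2 (2.06, SE 0.660). In gWAT 6 of 11 were higher, beside 9.99% of all genes, led by Gpi1, which makes the substrate fructose-6-phosphate (1.69, SE 0.186), and the other 5 were not called. Tigar, which removes a phosphate from fructose-2,6-bisphosphate, was among those higher in gWAT (1.09, SE 0.269, limma adjusted p = 0.0279) and gave 0.26 in BAT (SE 0.195, 0.275).

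Kinases and transcription factors known to act on these enzymes were tested as a list of 15. In BAT 7 were lower and 4 higher, beside 34% and 27.5% of all genes, with a median of -0.23. Myc, which drives glycolytic genes, rose most (2.35, SE 0.198, limma adjusted p = 2.74e-05) and the AMP-activated kinase subunit Prkag2 fell most (-1.60, SE 0.171). Prkaca, the catalytic subunit of protein kinase A that phosphorylates Pfkfb1, fell by 1.34 on the log2 scale (SE 0.142). In gWAT 4 were higher and 2 lower, beside 9.99% and 7.85% of all genes, with Mlxipl, a carbohydrate-responsive factor also called ChREBP, highest (1.53, SE 0.209, limma adjusted p = 0.00385) and Prkag2 again lowest (-0.86, SE 0.131).

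For each gene, the 3 genes with the most similar pattern over the 16 arrays were taken from 12359 genes above background on all arrays, by Pearson r and with no test, since group differences are part of r. Pfkl was nearest to Ddo, Vma21 and Gapdh (r of 0.987 to 0.990), and Pfkm to Foxred1, Egln1 and Acat1 (0.989 to 0.993). Pfkp was nearest to the lactate carrier Slc16a1 (0.976), Pfkfb1 to Akap7 (0.979), Pfkfb2 to Nfia (0.941), Pfkfb3 to Sh3pxd2a (0.902) and Pfkfb4 to Chaf1a (0.913). Fbp1 was nearest to Gnmt (0.980) and Apoa2 (0.967), genes known from liver, and kept r of 0.985 and 0.973 with group means removed. Pgam1 had r of 0.967 with Pfkm and 0.932 with Pfkl, against 0.663 with Pfkp.

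The promoter windows printed above were set beside these responses. Of the genes with a match, Pfkfb2 gave -0.54 in BAT and -0.55 in gWAT, Fbp2 and Pfkfb3 were called lower in BAT and not called in gWAT, and Pfkm fell in BAT. Of those without a match, Pfkl, Pfkfb1 and Fbp1 were called lower in BAT, and Pfkp and Pfkfb4 were called higher.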

How the data were processed

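Total RNA of 16 samples was hybridised to 1-colour Agilent mouse arrays with 62976 spots. The authors deposited scanner files of Agilent Feature Extraction 10.7.1.1 (submitters' notes), which hold an intensity per spot with 0 or 1 marks for spots well above background or saturated. They also deposited a table of normalized signal, which lay within 0.00504 of the values used here on the log2 scale in each array's median.

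After control spots were dropped and repeated spots of a probe averaged, processed intensities were taken to log2 and set relative to the array's 75th percentile. Of 35886 probes with a RefSeq accession, 32994 (91.9%) matched a symbol, and the brightest probe stood for each of 22911 genes. A gene entered a test where every one of the 4 arrays in 1 or more of the compared groups marked its probe as well above background. Each comparison was fitted on its own groups with limma 3.58.1 (lmFit, eBayes) in R 4.3.3, with Benjamini-Hochberg adjustment over all genes tested and a threshold of 0.05. Exact permutation tests, two-sided, used Python 3.11.15 and numpy 2.4.6. The fitting script was tested on simulated data.

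The text names the 9 genes, Pgam1, from each pathway list the called genes with the largest change up and down and those a sentence on the 9 genes turns on, and for each gene with a probe above background on all 16 arrays the 3 most like it by Pearson r. Gfpt2, Tigar and Prkaca were chosen from the lists after their values were seen. The genes and lists were chosen with earlier results of these data known. Lists were described by counts and medians. Arrays cannot give a depth, and their number limits the precision. Alternatives covered scaling (median, quantile, spike-in, Actb and Rplp0, adipocyte markers), normexp background on the median spot intensity, the deposited table, filters, probes, the methods' t-test, slide, replicate blocks and leaving out each array.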

Additional observations from a re-analysis of the deposited data

Results flagged for a closer look

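Pfkp in gWAT labelled Adipo-Pgam1 KO replicate 4, the 14-week sample, read 3.19, well below the other 3 arrays of its group, the nearest of which read 3.51. It was the only single array that the rule for outlying arrays marked among the 36 gene and group combinations examined. That rule marks about 1 in 20 combinations by chance, so 1 among 36 is no more than chance gives.

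The genotype difference was not the same in both tissues for 6 genes, by limma's test of the difference between tissues. It was 3.13 more positive in gWAT for Pfkl, 2.08 for Pfkm, 1.11 for Pfkp, 1.45 for Pfkfb1 and 3.96 for Fbp2, and -1.13 for Pfkfb4. For Pfkp it went to -0.08 with adipocyte marker scaling. With slide as a fixed block neither Pfkfb1 (1.39, limma adjusted p = 0.0669) nor Pfkfb4 (-1.11, 0.257) was called, and Pfkfb4 was also not called with slide as a random block (-1.12, 0.0797), with median (-1.03, 0.0541), spike-in (-1.23, 0.0780) or Actb and Rplp0 scaling (-0.59, 0.272) or without a filter (-1.13, 0.0530). The size of the Fbp2 value is uncertain, since 2 of 4 gWAT control arrays were at background.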

How the results depend on the processing

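In BAT, 8777 genes were called, and 7880 to 8713 when single arrays were left out, but 13319 of the larger set when probes without a symbol were tested as well. In gWAT, 2525 genes were called. The count was 1384 with the median as scale, 5161 with spike-in scaling, 1138 with no filter, 4084 with probes without a symbol, 4040 in 1 fit over 16 arrays, 1618 with the methods' t-test, 184 with slide as a fixed block, 121 on the shared slide, and 1143 to 3237 when single arrays were left out (1188 without control replicate 2, 1582 without 3, and 1168, 1285 and 1143 without labelled replicates 1, 2 and 3). Of the 9 genes, 4 were called in gWAT, 2 with the median as scale, 1 with slide as a fixed block and 0 on the shared slide. The tissue difference of the genotype effect had 7162 calls, 3265 with slide as a fixed block and 2668 on shared slides. The tissue difference in controls had 9254 calls, 14143 with probes without a symbol and 4738 on the shared slide, where 3 of the 9 genes in place of 5 were called. In Adipo-Pgam1 KO mice it had 6664 calls, 10347 with probes without a symbol and 11777 with adipocyte marker scaling, where 6 of the 9 genes in place of 3 were called. Isoform pairs passed in 0 of 20 exact permutation tests (8 with an unadjusted p under 0.05) and in 12 of 20 in limma over all genes. The cause of these changes was not tested.

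Whether the sample numbers pair the samples could not be decided from 4 arrays per group. Same-numbered arrays did not all correlate above 0.1 in any comparison, after group means were removed. Between BAT and gWAT, r for replicates 1 to 4 was 0.18, 0.12, 0.13 and -0.03 in controls. With the KO label it was 0.12, 0.04, 0.27 and -0.14, and replicate 4 was the 14-week sample in both tissues. The replicate block left 1087 genes called in gWAT and 8610 in BAT. Under the block limma no longer called Pfkp in BAT (adjusted p = 0.0519), nor Pfkfb2 (0.0791) and Pgam1 (0.0514) in gWAT, and no other call of the 9 genes changed.

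Scaling moved the split of higher and lower calls. With adipocyte marker scaling, chosen after seeing the data, it was 12031 and 375 in BAT, 3017 and 644 in gWAT, 573 and 9881 for the tissue difference of the genotype effect (4057 and 3105 before), 3975 and 4996 between control tissues (5070 and 4184 before), and 11053 and 724 between Adipo-Pgam1 KO tissues (3387 and 3277 before). With Actb and Rplp0 scaling it was 7168 and 1395, 7141 and 2937, and 1948 and 4365 in the last 3 of these, and with spike-in scaling 3622 and 5223 between control tissues and 1540 and 2953 between Adipo-Pgam1 KO tissues.

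Signs turned as follows. In BAT, Pfkp was -0.30 with Actb and Rplp0 scaling, and Pfkl was 0.079, Pfkfb2 0.78 and Pfkfb3 0.027 with adipocyte marker scaling. In gWAT, Pfkfb4 was -0.038 with quantile normalization and -0.033 with Actb and Rplp0 scaling (-0.26 to 0.32 without single arrays), and Fbp1 -0.0039 with quantile normalization (-0.93 to 1.45). For the tissue difference of the genotype effect, Pfkfb2 was 0.090 with the median as scale, 0.53 with Actb and Rplp0 scaling, 0.14 as the mean of probes, 0.11 with slide as a fixed block and on shared slides and 0.022 as a random block (-0.037 to 0.055 without single arrays), Pfkfb3 was -0.23 with quantile normalization and -0.74 with adipocyte marker scaling, and Pfkp -0.083 with the latter. Between control tissues, Pfkfb3 was 0.0078 with the median as scale and 0.30 with Actb and Rplp0 scaling (-0.22 to 0.12), Pfkfb2 -0.0053 with quantile normalization, -0.18 with spike-in and -0.12 with adipocyte marker scaling, Pfkfb1 0.14 with Actb and Rplp0 scaling and 0.00061 as the mean of probes, and Fbp1 ranged from -2.20 to 0.19 without single arrays. Between Adipo-Pgam1 KO tissues, Pfkl was -0.023 with spike-in and -0.078 with Actb and Rplp0 scaling (-0.0096 to 0.22), Pfkfb2 -0.074 and -0.13, and with adipocyte marker scaling Pfkfb3 was 0.52, Pfkfb4 0.78 and Pgam1 0.89. In gWAT, Pfkfb1 minus Pfkfb3 was 0.054 with quantile normalization and 0.033 as the mean of probes (-0.31 to 0.094), and Fbp1 minus Fbp2 went from -2.43 to 0.59.

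No slide block was run between Adipo-Pgam1 KO tissues, which lay on different slides, and no t-test for the tissue difference of the genotype effect. Low signal limits Fbp2 in gWAT.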
